A study of Mus musculus with 8 samples.

Results

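The response of the otherwise unmodified mouse liver to a high-fat diet (HFD) was read from the 4 libraries of RORα f/f mice, 2 from mice on the control diet (CD) and 2 from mice on the HFD, in which fat gives 60% of the calories. The genes described are the 10024 of 38283 in the deposited table whose FPKM, the number of sequenced fragments scaled by transcript length and library size, was above 1 in each of these 4 libraries. In RORα f/f mice both copies of *Rora*, the gene of the nuclear receptor RORα, have exons 4 and 5 flanked by loxP sites. These mice carry no Cre recombinase and served as littermate controls in a study of mice in which Alb-cre removes these exons in hepatocytes (Alb-cre;RORα f/f, written LKO). All mice were C57BL/6 males, placed on the CD or the HFD at 8 weeks of age and kept on it for 10 weeks. Livers of 2 mice were pooled for each library, so that the spread between the 2 libraries of a group is that between pools and not between single animals. The time of day and the feeding state at which the livers were taken are not given in the sources used here.

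The liver takes up dietary fat and stores it, burns it in mitochondria and peroxisomes, or sends it out in lipoproteins, and it can also make fatty acids and cholesterol anew from sugar. Synthesis is under the control of the SREBP transcription factors, which answer to insulin and to the sterol and unsaturated fatty acid content of the cell, whereas the oxidation enzymes answer to PPARα, a receptor for fatty acids. Between meals the liver releases glucose through the enzymes of gluconeogenesis, and at all times it clears drugs and steroids through cytochromes P450 and the conjugating enzymes that follow them.

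On the HFD, transcripts of glucose release, of sterol and fatty acid synthesis and of drug clearance were among those that fell, and the fatty acid hydroxylase *Cyp4a14*, the bile acid carrier *Slc10a1* and the clock repressor *Nr1d1* were among those that rose. In limma, fitted to log2(FPKM + 1) over all 8 libraries with Benjamini-Hochberg adjustment over the 11634 genes tested, 66 members were higher on HFD at an adjusted p under 0.05 (0.658% of the members) and 76 were lower (0.758%), 1.42% in all. Of all genes tested, 155 passed (1.33%), 0.627% higher and 0.705% lower. Without normalization the split was 49 higher and 103 lower. For each of the 142 members called, the FPKM of the 2 diets did not overlap, which held for 22.4% of all members on the higher side and 28.6% on the lower side (22.3% and 27.6% of the genes tested). This was read from the same f/f libraries as the calls, so it is no separate support for them. The log2 fold changes of the called genes ran from 0.36 to 2.95 with a median of 0.62 among the higher genes and from −2.56 to −0.45 with a median of −0.88 among the lower genes. The unadjusted p was under 0.05 for 2021 members (20.2%), and for 19.2% of the genes tested.
The number of calls rested on the full set of libraries. With any 1 of the 8 libraries left out, between 0 and 2 members were called as higher and between 5 and 16 as lower, and of these calls 5 to 12 were among the 142. The fewest calls came without the second CD-fed f/f library. Every one of the 142 log2 fold changes kept its sign in each of these fits. The diets did not overlap in any of these genes, so leaving out 1 f/f library could hardly turn a sign. The kept signs therefore add no support. The FPKM scale holds no read counts, so that the depth behind a value is not known from the table, and the 1 added before taking logs makes the changes of weakly expressed genes look smaller than they were.

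**Figure D1:**
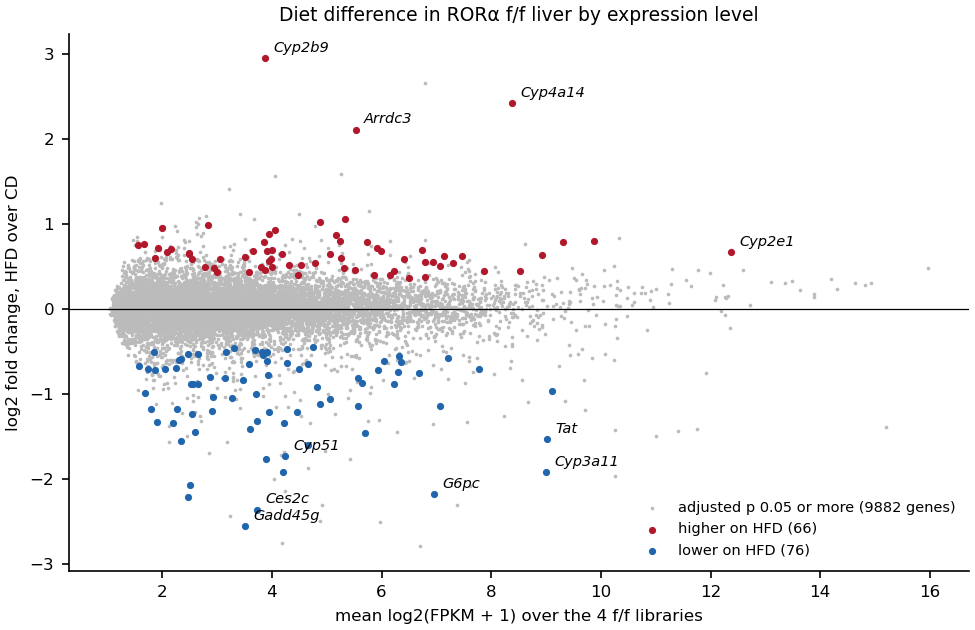
Each point is 1 of the 10024 genes, with its mean log2(FPKM + 1) over the 4 f/f libraries on the horizontal axis and its log2 fold change, HFD over CD, on the vertical axis. The 66 called higher genes (red) and the 76 called lower genes (blue) lay at low and at high expression levels, though few were among the most abundant genes. Of all points, 90 lay at −1 or below against 17 at 1 or above.

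Most differences between the diets were small. The median log2 fold change over the members was 0.01, and 77% lay within 0.25 of 0. Spearman's rho over the members was 0.987 between the CD libraries and 0.987 between the HFD libraries, against 0.974 to 0.979 between libraries of different diets. From 10587 to 10650 genes were above 1 in an f/f library. The second CD-fed library had a summed FPKM of 984000 against 754000 to 807000 in the other 3, with 183794 of it in ENSMUSG00000093077 alone, and all libraries were quantile normalized before the test. Normalization raised the log2 fold change of the most abundant transcripts. Its median shift was 0.19 for the 80 members with a mean FPKM of 1000 or more on CD, and 0.02 for those under 10. In 44 genes the table lists 0 in 1 f/f library or more and over 100 in another. One of these is the hepatocyte gene *Alb*, listed at 30089, 30888 and 30681 in 3 libraries and at 0 in the second HFD-fed library, which is therefore no member. The other 9 hepatocyte markers were members, and *Ttr*, which encodes transthyretin, had FPKM of 4025 and 3994 on CD and 4196 and 4034 on HFD, nearly equal between the diets, although its normalized log2 fold change was 0.42. *Cyp2e1*, *Dgat2*, *Scarb1* and *Lbp*, described below as higher, did not pass without normalization or with median centring, nor did *Cdo1*, *Vnn1* and *Acox2* without normalization. A rule of less strict form is used below beside the calls, and was met by genes with an unadjusted p under 0.05, a log2 fold change of at least 0.5 in size and libraries that do not overlap between the diets. It held for 195 members on the higher side (1.95%, against 2.2% of genes tested) and 321 on the lower side (3.2%, against 3.43%).

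*G6pc*, the catalytic subunit of glucose-6-phosphatase and the last step of glucose release, had the lowest p of all members before adjustment. In GRCm38 it occupies positions 101367561 to 101377903 of chromosome 11, plus strand. Its FPKM was 246 and 298 on CD and 53.1 and 59.7 on HFD (log2 fold change −2.18, standard error 0.14, adjusted p = 0.00235 in limma). It was called lower in each of the 8 fits that left out 1 library, as was *Noct*, a circadian gene that encodes nocturnin, singled out here after its values were seen, with FPKM of 31.8 and 33.5 on CD and 13.8 and 12.6 on HFD (log2 fold change −1.22, standard error 0.08, adjusted p = 0.00235). No other called gene passed in all 8. *Tat*, tyrosine aminotransferase, another enzyme of the fasting liver, had 876 and 1036 on CD and 322 and 250.4 on HFD (log2 fold change −1.53, standard error 0.18, adjusted p = 0.0266). In all 3 genes both HFD libraries were far below both CD libraries.
Of the 19 members of the list for glucose metabolism and insulin action, 2 fell and 0 rose. The second was *Pfkfb3*, whose product sets the level of fructose 2,6-bisphosphate, with 8.99 and 12.2 on CD and 4.46 and 3.33 on HFD (log2 fold change −1.21, standard error 0.20, adjusted p = 0.0453). Among those that did not pass, *Igfbp1*, a binding protein of insulin-like growth factors whose transcription insulin represses, had 49.0 and 99.0 on CD and 15.2 and 8.20 on HFD (log2 fold change −2.50, adjusted p = 0.0849). Both of its HFD libraries were below both CD libraries. *Pck1*, the other control enzyme of gluconeogenesis, had 1173 and 1178 on CD and 693 and 491 on HFD (log2 fold change −0.84, adjusted p = 0.127).

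The other large falls were of mixed kinds. *Gadd45g*, a growth arrest and DNA damage gene, had FPKM of 27.8 and 26.0 on CD and 3.04 and 4.25 on HFD (log2 fold change −2.56, standard error 0.34, adjusted p = 0.0373), the largest fall of all called members. *Sik1*, a kinase induced by cyclic AMP, had 9.60 and 6.24 on CD and 2.19 and 1.70 on HFD (log2 fold change −1.56, adjusted p = 0.0373). *Slc25a25*, a mitochondrial carrier of ATP-Mg and phosphate, had 92.3 and 81.4 on CD and 31.4 and 28.1 on HFD (log2 fold change −1.46, adjusted p = 0.00732). The libraries of the 2 diets did not overlap in these 3 genes. *Trp53inp1*, a p53 target that acts in autophagy, had 42.7 and 44.4 on CD and 16.0 and 11.1 on HFD (log2 fold change −1.60, adjusted p = 0.0152). The lincRNA 9030616G12Rik had 9.82 and 12.4 on CD and 1.80 and 1.32 on HFD (log2 fold change −2.21, adjusted p = 0.0066). *Ctcflos*, annotated as an antisense transcript, had 16.7 and 21.6 on CD and 6.93 and 5.88 on HFD (log2 fold change −1.41, adjusted p = 0.0464), but the library kit does not mark strand and its reads cannot be told from those of an overlapping gene. *Ces2c*, a carboxylesterase with close paralogs, had 29.0 and 29.7 on CD and 4.98 and 4.52 on HFD (log2 fold change −2.36, standard error 0.19, adjusted p = 0.00781). ENSMUSG00000081448, which has no record in GENCODE M21, had a log2 fold change of −1.44. Of the 7 members of the list for cell cycle and growth arrest, *Gadd45g* fell, 0 rose and the others did not pass. *Ccnd1*, cyclin D1, had 4.30 and 7.45 on CD and 1.75 and 2.45 on HFD (log2 fold change −1.10, adjusted p = 0.0681).

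On the other side, *Cyp2b9*, a cytochrome P450 that is higher in female than in male mouse liver, had the largest log2 fold change. Its FPKM was 2.75 and 6.62 on CD and 28.6 and 55.1 on HFD (log2 fold change 2.95, standard error 0.46, adjusted p = 0.0421). *Arrdc3*, an arrestin-like adaptor that acts on receptor trafficking, had 29.0 and 16.3 on CD and 98.8 and 87.7 on HFD (log2 fold change 2.11, standard error 0.26, adjusted p = 0.0343). In both genes even the lower HFD library was over 3 times the higher CD library. *Pim1*, a serine/threonine kinase induced by cytokines, had 4.10 and 4.15 on CD and 10.9 and 7.53 on HFD (log2 fold change 0.99, adjusted p = 0.0421). *Rnf186*, a ubiquitin ligase, had 2.17 and 1.62 on CD and 5.05 and 4.11 on HFD (log2 fold change 0.95, adjusted p = 0.0444). *Serpina7*, the thyroxine-binding globulin of plasma, had 9.18 and 12.1 on CD and 19.4 and 20.3 on HFD (log2 fold change 0.88, adjusted p = 0.038). In these 3 genes both HFD libraries were above both CD libraries. Smaller rises were seen for *Cdo1*, the cysteine dioxygenase, with 699 and 791 on CD and 1198 and 1167 on HFD (log2 fold change 0.80, adjusted p = 0.0327), and for the retinol dehydrogenase family gene *Rdh9* and the kinase *Sgk2*, with log2 fold changes of 0.87 and 0.79 (adjusted p = 0.038 and 0.0373).

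**Figure D2:**
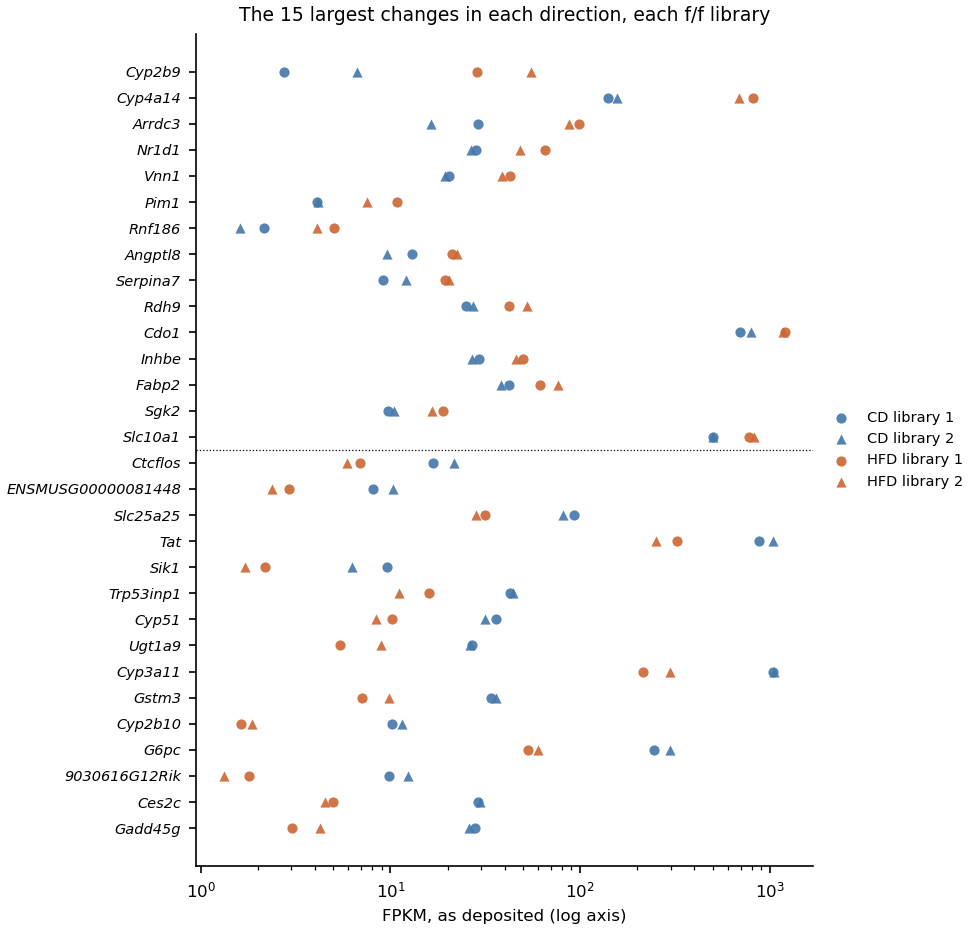
FPKM as deposited (log axis) of the 15 called genes with the largest log2 fold change in each direction, 1 symbol for each f/f library (blue, CD; orange, HFD; circles, library 1; triangles, library 2). The dotted line parts the higher genes above from the lower genes below. In each row the blue and the orange symbols do not overlap, which was a condition for showing a gene.

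Transcripts of cholesterol synthesis and uptake were lower on HFD along most of the pathway. All 26 genes of the list were members. At an adjusted p under 0.05, 3 fell and 0 rose, against 0.758% and 0.658% of all members. The less strict rule was met by 17 on the lower side and 0 on the higher side, against 3.2% and 1.95%. In 23 of the 26, both HFD libraries lay below both CD libraries, against 28.6% of all members. The exceptions were *Srebf2*, *Ggps1* and *Fdft1*. The median log2 fold change was −0.69, against 0.01 over all members, and ran from −0.74 to −0.63 over the other settings tried. *Cyp51*, the lanosterol demethylase, had FPKM of 36.2 and 31.4 on CD and 10.2 and 8.36 on HFD (log2 fold change −1.73, standard error 0.26, adjusted p = 0.0394). *Dhcr7*, which makes cholesterol from 7-dehydrocholesterol, had 28.4 and 29.9 on CD and 11.5 and 9.74 on HFD (log2 fold change −1.34, standard error 0.14, adjusted p = 0.0248). *Tm7sf2*, a sterol reductase between them, had 61.6 and 64.1 on CD and 31.2 and 37.3 on HFD (log2 fold change −0.81, standard error 0.12, adjusted p = 0.0394). No HFD library of *Cyp51* or *Dhcr7* came near a CD library. Large differences that did not pass were seen in *Idi1*, the isopentenyl diphosphate isomerase, with 55.4 and 41.9 on CD and 11.8 and 12.2 on HFD (log2 fold change −1.87, adjusted p = 0.0586), in *Fdps*, the farnesyl diphosphate synthase, with 79.4 and 78.4 on CD and 21.7 and 22.1 on HFD (log2 fold change −1.76, adjusted p = 0.0633), and in *Sqle*, the squalene epoxidase, with 11.9 and 12.3 on CD and 3.02 and 2.89 on HFD (log2 fold change −1.69, adjusted p = 0.0661). Differing from these, *Srebf2*, the factor that drives it, had 9.36 and 7.96 on CD and 8.74 and 8.30 on HFD (log2 fold change 0.00, adjusted p = 1).
The promoters of *Cyp51*, which fell, and of *Hmgcs1*, the hydroxymethylglutaryl-CoA synthase, are shown because *Hmgcs1* was the only one of the 18 list genes with a matched promoter that held the letters TCACNCCAC, the core of the sterol regulatory element bound by SREBP, on either strand. Both are RefSeq windows of GRCm38.p6, 5′ to 3′ on the gene's strand, from 250 bases before the start site to 50 after. They lie at chr5:4104648-4104947 on the minus strand and chr13:119690101-119690400 on the plus strand. Capitals mark the match, and none of the 6 motifs searched was found in the window of *Cyp51*.
Cyp51: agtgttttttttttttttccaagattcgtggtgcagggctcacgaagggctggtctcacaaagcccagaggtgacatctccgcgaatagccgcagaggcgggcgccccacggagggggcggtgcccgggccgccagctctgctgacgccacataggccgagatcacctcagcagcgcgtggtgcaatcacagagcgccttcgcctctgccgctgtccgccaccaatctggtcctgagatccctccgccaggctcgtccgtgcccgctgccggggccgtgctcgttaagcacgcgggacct
Hmgcs1: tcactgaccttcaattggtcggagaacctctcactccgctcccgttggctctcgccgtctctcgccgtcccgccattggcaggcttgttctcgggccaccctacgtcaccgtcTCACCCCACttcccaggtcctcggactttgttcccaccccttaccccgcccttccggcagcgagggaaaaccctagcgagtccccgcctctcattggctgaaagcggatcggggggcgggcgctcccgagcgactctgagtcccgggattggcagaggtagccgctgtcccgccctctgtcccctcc
*Hmgcs1* had FPKM of 45.1 and 36.3 on CD and 36.1 and 33.3 on HFD (log2 fold change −0.19, adjusted p = 0.74), so that the gene with these letters did not pass and *Cyp51* without them did. The letters were held by 1.24% of all promoters in the table, by 3 of the 62 called lower genes with a matched promoter (4.84%) and by 0 of 50 called higher genes. Among the members as a whole 1.54% held them. The other motifs were searched in the same way. An E-box (CACGTG) was held by 6 of 50 higher (12%) and 5 of 62 lower genes (8.06%) against 12.4% of members, and the antioxidant response element (TGACNNNGC) by 5 (10%) and 12 (19.4%) against 17.3% of members. The core of the PPAR-RXR element (GGTCANAGG), the D-box (TTATGTAA) and the core of the ROR element (ANTAGGTCA) were each held by at most 1 gene of either group. These are matches of letters and not sites, and a window without a match says nothing about binding elsewhere. Windows were matched by gene name, and the one taken for *Sgk2*, on chromosome 2, was that of *Thoc5* on chromosome 11. Whether other windows were mismatched was not checked, so the shares are approximate.

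Fatty acid synthesis showed the same side with more spread between the libraries. Of its 21 members, 1 fell and 0 rose, against 0.758% and 0.658% of all members. The less strict rule was met by 11 on the lower side and 1 on the higher side, against 3.2% and 1.95%. The median was −0.54 (−0.60 to −0.42 over the other settings). The gene that fell was *Acly*, which cleaves citrate to the acetyl-CoA that feeds synthesis, with FPKM of 38.8 and 47.9 on CD and 18.5 and 19.2 on HFD (log2 fold change −1.12, standard error 0.12, adjusted p = 0.0248). *Elovl6*, the elongase of long-chain fatty acids, had 10.9 and 20.1 on CD and 3.82 and 4.73 on HFD (log2 fold change −1.56, adjusted p = 0.0744). *Acacb*, an acetyl-CoA carboxylase, had 7.27 and 9.63 on CD and 2.50 and 3.48 on HFD (log2 fold change −1.21, adjusted p = 0.0912), and *Fasn*, the fatty acid synthase, had 45.2 and 45.8 on CD and 19.5 and 24.5 on HFD (log2 fold change −1.0, adjusted p = 0.0778). Each of these 4 genes had separate libraries on the lower side. *Scd1*, the stearoyl-CoA desaturase, had 696 and 1437 on CD and 234 and 762 on HFD (log2 fold change −1.09, adjusted p = 0.449), and its libraries overlapped, the second library of each diet being the higher one. The transcription factors of the pathway did not pass, with log2 fold changes of 0.35 for *Srebf1* and 0.14 for *Mlxipl*, the carbohydrate response factor.

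**Figure D3:**
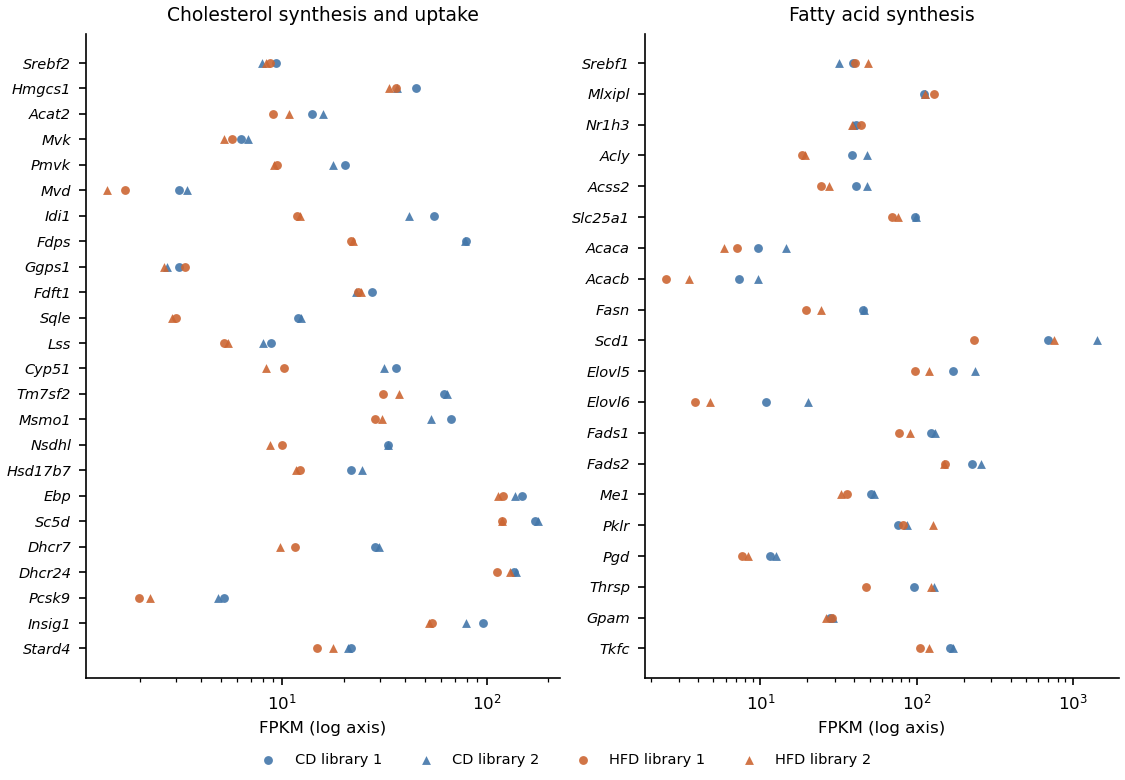
FPKM (log axis) of member genes of cholesterol synthesis and uptake (left, 24 genes) and of fatty acid synthesis (right, 20 genes), 1 symbol for each f/f library (blue, CD; orange, HFD; circles, library 1; triangles, library 2). On the left the orange symbols lie below both blue symbols in 21 rows, and on the right in 13 rows. Over all members this held for 28.6%.

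Of the members listed for fatty acid oxidation, 2 rose and the others did not pass. Among the 21 members for peroxisomal and microsomal oxidation, 2 rose and 0 fell. The less strict rule was met by 4 on the higher side and 3 on the lower side, against 1.95% and 3.2% of all members. Libraries were separate on the higher side in 5 and on the lower side in 8, against 22.4% and 28.6% of all members. *Cyp4a14*, a fatty acid ω-hydroxylase and a known PPARα target, had FPKM of 139 and 156 on CD and 817 and 685 on HFD (log2 fold change 2.42, standard error 0.20, adjusted p = 0.00835). *Vnn1*, the pantetheinase vanin-1, also a PPARα target, had 20.3 and 19.5 on CD and 42.5 and 38.7 on HFD (log2 fold change 1.03, adjusted p = 0.0439). Their HFD libraries were all above the CD libraries. *Cyp4a12a*, the hydroxylase of male liver, had 138 and 122 on CD and 47.8 and 42.5 on HFD (log2 fold change −1.45, adjusted p = 0.05), lower in both HFD libraries without passing. *Cyp4a10* had 289 and 341 on CD and 453 and 521 on HFD (log2 fold change 0.76, adjusted p = 0.253). The *Cyp4a* genes are close paralogs, and how reads were divided between them could move each value. The median of the list, 0.04, lay between −0.07 and 0.12 over the other settings.
Of the 24 members for mitochondrial oxidation and ketogenesis, 0 passed in limma in either direction. An unadjusted p under 0.05 in limma was found in 13, against 20.2% of all members. Libraries were separate on the higher side in 14 and on the lower side in 5, against 22.4% and 28.6% of all members. The median was 0.19 (0.14 to 0.20 over the other settings). *Acadm*, the medium-chain acyl-CoA dehydrogenase, had 168 and 153 on CD and 235 and 206 on HFD (log2 fold change 0.55, adjusted p = 0.071). The subunits of oxidative phosphorylation were closer still to 0. Of 32 members, 0 passed and 2 had an unadjusted p under 0.05 in limma, against 20.2% of all members. The log2 fold changes ran from −0.08 to 0.25 and the median was 0.11 (0.05 to 0.13 over the other settings).

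Storage, uptake and export of lipid changed in single genes. For lipid droplets and triglyceride (20 members), 1 rose and 0 fell. *Dgat2*, which adds the last acyl chain of triglyceride, had FPKM of 207 and 205 on CD and 259.9 and 261 on HFD (log2 fold change 0.44, standard error 0.06, adjusted p = 0.0373). *Plin2*, the main coat protein of liver lipid droplets, had 213 and 272 on CD and 155 and 151 on HFD (log2 fold change −0.57, adjusted p = 0.192) and *Lpin2*, a phosphatidate phosphatase, had 118 and 142 on CD and 72.3 and 68.8 on HFD (log2 fold change −0.82, adjusted p = 0.118). Neither of these passed, although both were lower in both HFD libraries. For fatty acid uptake and binding (15 members), *Fabp2*, a fatty acid binding protein best known from the intestine, rose, with 42.3 and 38.1 on CD and 61.0 and 76.5 on HFD (log2 fold change 0.79, adjusted p = 0.0439), while the acyl-CoA synthetases *Acsl4* and *Acsl5* fell. *Acsl4* had 16.4 and 19.3 on CD and 7.57 and 8.94 on HFD (log2 fold change −1.0, adjusted p = 0.0373) and *Acsl5* had 77.6 and 87.0 on CD and 50.4 and 52.0 on HFD (log2 fold change −0.62, adjusted p = 0.038). *Fabp5* had 13.7 and 32.4 on CD and 3.88 and 2.32 on HFD, and its log2 fold change of −2.43 did not pass (adjusted p = 0.0621). *Cd36*, the fatty acid translocase, had 15.3 and 19.2 on CD and 17.0 and 29.3 on HFD (log2 fold change 0.38, adjusted p = 0.491).
Among 21 apolipoprotein and lipoprotein genes, *Scarb1*, the receptor that takes up cholesterol from high-density lipoprotein, rose and 0 fell, with 65.5 and 59.4 on CD and 77.8 and 78.9 on HFD (log2 fold change 0.40, adjusted p = 0.0487). The median of this list was 0.24 and fell to 0.09 without normalization, which moves highly expressed genes most. Among 19 genes of bile acid synthesis and transport, 3 rose and 0 fell. They were *Slc10a1*, the sodium-dependent bile acid carrier of hepatocytes, with 504 and 501 on CD and 777 and 820.0 on HFD (log2 fold change 0.78, standard error 0.11, adjusted p = 0.0379), the organic anion carrier *Slco1b2*, with 390.3 and 419 on CD and 598 and 574 on HFD (log2 fold change 0.64, adjusted p = 0.038), and *Acox2*, which shortens the side chain of bile acid precursors, with 93.6 and 91.5 on CD and 138 and 127 on HFD (log2 fold change 0.55, adjusted p = 0.0412). *Cyp7a1*, the rate-limiting enzyme of bile acid synthesis, had overlapping libraries at 66.3 and 100.4 on CD and 70.7 and 77.6 on HFD. *Cyp7b1*, of the alternative pathway, had 208 and 193 on CD and 96.8 and 56.9 on HFD (log2 fold change −1.36, adjusted p = 0.108).

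Drug and steroid metabolism shifted in both directions. Of 25 members of cytochrome P450 families 1 to 3, 2 rose and 3 fell. *Cyp3a11*, the main P450 induced through the receptor PXR, had FPKM of 1033 and 1045 on CD and 214 and 298 on HFD (log2 fold change −1.92, standard error 0.19, adjusted p = 0.0203). *Cyp2b10*, a target of the receptor CAR, had 10.2 and 11.4 on CD and 1.63 and 1.86 on HFD (log2 fold change −2.07, standard error 0.17, adjusted p = 0.00894), and *Cyp2c29*, another such gene, had 876 and 770.1 on CD and 320.0 and 427 on HFD (log2 fold change −0.96, adjusted p = 0.038). The HFD libraries of *Cyp3a11* and *Cyp2b10* lay far below the CD libraries. *Cyp2b9*, above, and *Cyp2e1*, an ethanol- and acetone-metabolizing P450, rose, the latter with 4285 and 4680.2 on CD and 6332 and 6173 on HFD (log2 fold change 0.67, adjusted p = 0.0393). Of 37 glutathione and phase II enzymes, 4 fell and 0 rose. The glutathione S-transferase *Gstm3* had 33.9 and 36.1 on CD and 7.06 and 9.79 on HFD (log2 fold change −1.92, standard error 0.22, adjusted p = 0.0265). Its paralog *Gstm6* had a log2 fold change of −0.72, the glucuronosyltransferase *Ugt2b1* −0.70 and the epoxide hydrolase *Ephx1* −0.57 (adjusted p = 0.0373, 0.0266 and 0.0464). *Ugt1a9*, which is in none of the lists and shares its last exons with other *Ugt1a* genes, had 26.9 and 26.4 on CD and 5.39 and 8.94 on HFD (log2 fold change −1.76, adjusted p = 0.0349). The *Cyp2b*, *Cyp2c*, *Cyp3a*, *Gstm* and *Ugt* families hold near-identical copies, and the FPKM of each copy is uncertain. The medians of both lists, −0.01 and −0.00, changed sign between settings.

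The list for growth hormone action and sex-biased genes had 14 members, of which *Cyp2b9* rose and 0 fell. In 6 of the 14 the log2 fold change was above 0 and in 8 below. The median was −0.10 (−0.21 to 0.01 over the other settings). Libraries were separate on the lower side in 6 and on the higher side in 1, against 28.6% and 22.4% of all members. *Cyp4a12a* and *Cyp7b1*, both higher in male liver, are also in this list and were lower in both HFD libraries without passing. *Socs2*, an inhibitor of growth hormone signaling, had 1.85 and 5.62 on CD and 4.50 and 12.9 on HFD (log2 fold change 1.02, adjusted p = 0.323), with overlapping libraries. The major urinary protein genes, which encode pheromone carriers of male liver, had the lowest median of the 21 lists, −1.19, and it lay between −1.56 and −0.77 over the other settings. Of their 19 members 0 passed in limma in either direction and 8 had an unadjusted p under 0.05, against 20.2% of all members. Libraries were separate on the lower side in 11 and on the higher side in 0, against 28.6% and 22.4% of all members. *Mup15* had 2022 and 3489 on CD and 1044 and 297 on HFD (log2 fold change −1.96, adjusted p = 0.177) and *Mup19* had 85.3 and 925 on CD and 43.9 and 31.9 on HFD (log2 fold change −2.79, adjusted p = 0.431). The second CD-fed library was over 10 times the first in *Mup19*, and these genes are nearly identical copies among which reads cannot be placed with certainty.

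Among secreted proteins, *Angptl8*, which inhibits lipoprotein lipase and is made by the fed liver, rose, with 13.0 and 9.56 on CD and 21.0 and 22.4 on HFD (log2 fold change 0.93, standard error 0.13, adjusted p = 0.038), and so did *Inhbe*, the activin E subunit, with 29.3 and 26.8 on CD and 50.1 and 45.7 on HFD (log2 fold change 0.80, standard error 0.11, adjusted p = 0.0373). They were the 2 of 16 hepatokine members that passed, and 0 fell. *Hamp*, which encodes the iron hormone hepcidin, had 2537 and 1789 on CD and 590.4 and 855 on HFD (log2 fold change −1.43, adjusted p = 0.066), and *Gdf15* and *Fgf21*, stress hormones of liver, stayed at low levels with log2 fold changes of 0.56 and 0.32 (adjusted p = 0.365 and 0.498). Of the 18 clock and clock output members, *Nr1d1*, which encodes the repressor REV-ERBα, rose and 0 fell, with 28.1 and 26.5 on CD and 65.6 and 48.3 on HFD (log2 fold change 1.05, standard error 0.14, adjusted p = 0.0373). *Dbp*, a clock output factor, had 45.0 and 40.5 on CD and 72.3 and 58.5 on HFD (log2 fold change 0.64, adjusted p = 0.105). *Per2*, a core clock repressor, had 6.38 and 6.92 on CD and 5.90 and 5.83 on HFD (log2 fold change −0.13, adjusted p = 0.54), and *Arntl*, the clock activator BMAL1, was no member, at 0.587 and 0.535 on CD and 1.13 and 0.745 on HFD. Of the list, 8 members had separate libraries on the higher side and 5 on the lower side, against 22.4% and 28.6% of all members. The time of killing was not given.

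Enzymes of amino acid catabolism and the urea cycle moved singly. Of 39 members, 1 rose and 3 fell. *Prodh*, the proline dehydrogenase, rose, with 85.9 and 82.3 on CD and 124 and 143 on HFD (log2 fold change 0.70, standard error 0.08, adjusted p = 0.0266). *Tat*, above, *Got1*, the cytosolic aspartate aminotransferase, and *Acmsd*, which steers tryptophan away from nicotinamide nucleotide synthesis, fell. *Got1* had 172 and 236 on CD and 75.8 and 101 on HFD (log2 fold change −1.14, adjusted p = 0.0464) and *Acmsd* had 7.25 and 9.05 on CD and 2.49 and 3.08 on HFD (log2 fold change −1.24, adjusted p = 0.038). *Bhmt*, which remethylates homocysteine, had 911 and 1209 on CD and 1608 and 1558 on HFD (log2 fold change 0.83, adjusted p = 0.0904). The urea cycle genes *Cps1* and *Otc* had log2 fold changes of −0.16 and 0.02 (adjusted p = 0.496 and 0.934).
In the list for the unfolded protein and integrated stress response, 23 members, 0 passed in limma in either direction. An unadjusted p under 0.05 in limma was found in 13, against 20.2% of all members. Nonetheless 19 had both HFD libraries below both CD libraries and 2 had both above, against 28.6% and 22.4% of all members. The median was −0.39 (−0.47 to −0.25 over the other settings). *Sdf2l1*, a chaperone of the endoplasmic reticulum, had 11.8 and 14.8 on CD and 7.18 and 5.30 on HFD (log2 fold change −0.95, adjusted p = 0.0925), and *Trib3*, a pseudokinase induced by the factor ATF4, had 2.01 and 1.84 on CD and 6.42 and 3.38 on HFD (log2 fold change 0.97, adjusted p = 0.0876). Of 15 heat shock members 0 passed and 4 had an unadjusted p under 0.05 in limma, against 20.2% of all members. The median of this list was −0.09. Among 22 acute-phase members, *Lbp*, the lipopolysaccharide-binding protein, rose and 0 fell, with 51.7 and 50.1 on CD and 62.6 and 67.0 on HFD (log2 fold change 0.40, adjusted p = 0.0453). Of the 22, 4 met the less strict rule on the lower side and 0 on the higher side, against 3.2% and 1.95% of all members. Libraries were separate on the lower side in 6 and on the higher side in 2, against 28.6% and 22.4% of all members. The serum amyloid genes *Saa1* and *Saa2*, near-identical neighbors, had wide differences that did not pass. *Saa1* had 473 and 299.9 on CD and 41.2 and 127 on HFD (log2 fold change −2.30, adjusted p = 0.0827), and *Saa2* had 142 and 161 on CD and 10.7 and 55.7 on HFD (log2 fold change −2.51, adjusted p = 0.115).

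**Figure D4:**
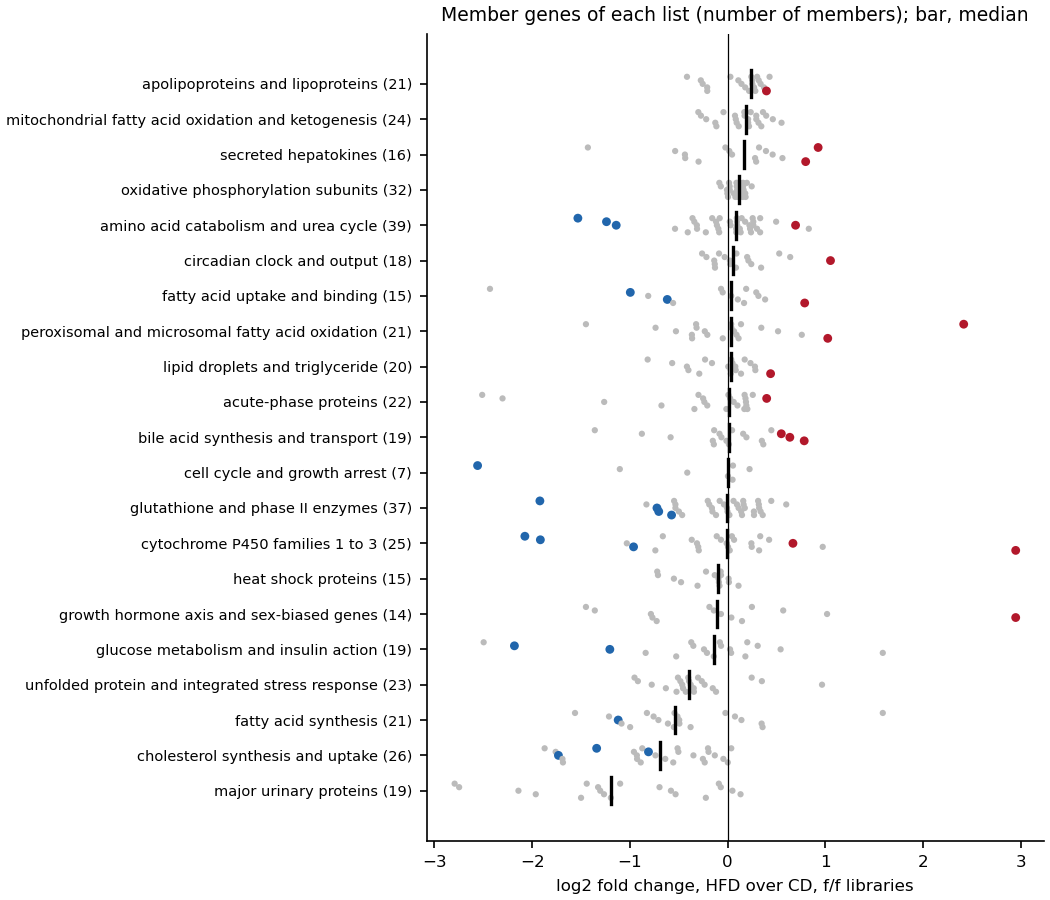
Log2 fold change, HFD over CD, of the member genes of each of the 21 lists in the f/f libraries. Each point is a gene (red, called higher; blue, called lower; grey, not called), the black bar is the median of the list, and the number of members stands in brackets. The lowest medians are those of the major urinary proteins, −1.19, cholesterol synthesis and uptake, −0.69, and fatty acid synthesis, −0.54, and no list has a median above 0.24.

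The lists hold 15 of the 66 higher and 19 of the 76 lower called genes, and the others belong to no list. Some of these, singled out here after their values were seen, are known genes of metabolism or hormone signaling. *Mpc1*, a subunit of the mitochondrial pyruvate carrier, rose, with 130.5 and 134 on CD and 182 and 192 on HFD (log2 fold change 0.54, adjusted p = 0.0385), and *Acat1*, the mitochondrial acetoacetyl-CoA thiolase, rose, with 117 and 112 on CD and 178 and 169 on HFD (log2 fold change 0.62, adjusted p = 0.0373). *Thra*, a thyroid hormone receptor, rose, with 3.50 and 3.51 on CD and 6.47 and 5.61 on HFD (log2 fold change 0.66, adjusted p = 0.0343). *Cebpa*, a transcription factor of the mature hepatocyte, rose, with 73.6 and 65.9 on CD and 104 and 98.5 on HFD (log2 fold change 0.59, adjusted p = 0.0373). The 4 genes rose by less than 1 on the log2 scale, with little spread within a diet. On the lower side, *Dusp1*, a phosphatase of MAP kinases, had 21.0 and 19.3 on CD and 6.24 and 8.48 on HFD (log2 fold change −1.32, adjusted p = 0.0197), *Lifr*, the receptor of leukemia inhibitory factor, had 66.2 and 74.6 on CD and 29.6 and 31.4 on HFD (log2 fold change −1.14, adjusted p = 0.0404), and *Egfr*, the receptor of epidermal growth factor, had 98.3 and 104 on CD and 61.4 and 67.4 on HFD (log2 fold change −0.62, adjusted p = 0.0373). *Fh1*, the fumarate hydratase, had 96.5 and 107 on CD and 55.9 and 61.9 on HFD (log2 fold change −0.74, adjusted p = 0.0394). In each of them the HFD libraries lay well below the CD libraries.

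Markers of the other cells of the liver were read alongside, because in bulk tissue fewer cells of a type and less RNA per cell cannot be told apart. Of 20 Kupffer cell and macrophage markers 14 were members, of which 0 were called in limma. An unadjusted p under 0.05 in limma was found in 4, against 20.2% of all members. Libraries were separate on the lower side in 9 of these markers and on the higher side in 0, against 28.6% and 22.4% of all members. The median of these markers was −0.36. Their summed FPKM over the whole list was 185 and 227 on CD and 163 and 137 on HFD. *Clec4f*, the defining lectin of mouse Kupffer cells, had 28.3 and 32.6 on CD and 22.9 and 20.8 on HFD (log2 fold change −0.44, adjusted p = 0.135), and *Trem2* and *Gpnmb* were under 1 in all 4 libraries. The part of these cells in the lower genes was not tested. Of the 10 stellate cell members 0 were called and 3 had an unadjusted p under 0.05 in limma, against 20.2% of all members. Of these 10, 5 had separate libraries on the higher side and 1 on the lower side, against 22.4% and 28.6% of all members. The summed FPKM over the whole list was 128 and 116 on CD and 194 and 150 on HFD. Most of it came from *Dcn*, with 43.3 and 45.3 on CD and 72.2 and 52.5 on HFD, and *Ecm1*. *Tagln* went the other way, with 2.96 and 3.48 on CD and 1.77 and 2.37 on HFD (log2 fold change −0.45, adjusted p = 0.14 in limma). *Col1a1*, a collagen of fibrosis, had 0.548 and 1.03 on CD and 0.695 and 0.570 on HFD. The hemoglobin genes set the f/f libraries apart by number and not by diet, since *Hbb-bs* had 19.0 and 149 on CD and 14.2 and 86.6 on HFD. *Alas2*, the other erythrocyte marker, was lower in both HFD libraries, with 41.0 and 39.3 on CD and 25.8 and 31.4 on HFD (log2 fold change −0.46, adjusted p = 0.0908 in limma). Of the zonal hepatocyte markers *Cyp2e1* alone was called, and 9 pericentral members had a median of 0.10 against −0.17 for 10 periportal members. Without normalization these medians were −0.02 and −0.25. Of the pericentral members 4 had separate libraries on the higher side and 2 on the lower side, and of the periportal members 1 and 7. Over all members these shares were 22.4% and 28.6%. Pericentral *Cyp1a2* was lower on HFD, with 297 and 244 on CD and 158 and 150 on HFD (log2 fold change −0.74, adjusted p = 0.139 in limma). Of the adipocyte markers, *Adipoq* had 0 and 0 on CD and 0.377 and 0.212 on HFD and *Lep*, *Retn* and *Plin1* were under 0.1 throughout. Of the 4 adipocyte markers that were members, 0 were called and 2 had an unadjusted p under 0.05 in limma, against 20.2% of all members. *Car3*, a carbonic anhydrase also found in liver, had 1559 and 1581 on CD and 1054 and 825 on HFD (log2 fold change −0.60, adjusted p = 0.0648), and *Fabp4*, the fatty acid binding protein of adipocytes, had 6.45 and 7.78 on CD and 8.89 and 8.94 on HFD (log2 fold change 0.32, adjusted p = 0.191). *Cfd*, which encodes adipsin and was no member, had 0.182 and 0.483 on CD and 0.488 and 1.87 on HFD (log2 fold change 0.70, adjusted p = 0.438). Both HFD libraries lay below both CD libraries in *Car3* and above them in *Fabp4* and *Cfd*, and the part of adipocytes in the results was not tested. Of the 6 pancreatic acinar markers, *Cpa1*, *Prss2*, *Pnlip*, *Amy2a5* and *Ctrb1* were listed at 0 in all 4 libraries, while *Cela1*, an elastase, was a member with 9.85 and 10.8 on CD and 14.0 and 12.9 on HFD (log2 fold change 0.39, adjusted p = 0.177), higher in both HFD libraries without passing.

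The same diets were compared in the 4 LKO-labelled libraries, which share no library with the f/f comparison. *Rora* had FPKM of 8.85 and 8.59 on CD and 7.56 and 7.86 on HFD in the f/f libraries (log2 fold change −0.14, adjusted p = 0.353) and 7.96 and 8.18 on CD and 7.30 and 8.02 on HFD in the LKO-labelled libraries. Since its whole-gene value did not set the genotypes apart on HFD, the libraries are called by their labels. Of the 66 genes that rose in f/f liver, 62 had a log2 fold change above 0 in the LKO-labelled libraries, against 51.6% of all members and 51.1% of genes tested, and 37 were called higher there (56.1%, against 1.74% of members and 1.57% of genes tested). Of the 76 that fell, 73 were below 0, against 48.4% of members and 48.2% of genes tested, and 44 were called lower (57.9%, against 1.56% and 1.44%). Both contrasts come from 1 fit with a common variance for each gene, so that a gene of low variance is more readily called in both, and the shares over all genes are not what these genes would show without a change. With the 4 LKO-labelled libraries alone 0 members were called. In the LKO-labelled libraries the median of the 66 genes was 0.48 and that of the 76 was −0.69, against 0.62 and −0.88 in f/f, the libraries that chose them. Over all members the log2 fold changes in the f/f and in the LKO-labelled libraries were correlated with r = 0.61 (Pearson) and rho = 0.46 (Spearman), a description across genes that share libraries within each axis.
*Cyp4a14*, *Cyp2b9*, *G6pc* and *Gadd45g* had log2 fold changes of 2.58, 3.18, −1.91 and −2.40 in the LKO-labelled libraries (adjusted p = 0.00907, 0.0251, 0.00681 and 0.0249). The cholesterol list had a median of −0.52 there with 6 of 26 called lower and 0 higher, and the fatty acid synthesis list had −0.48 with 7 of 21 called lower and 0 higher. The list for mitochondrial oxidation had 9 of 24 called higher in the LKO-labelled libraries and 0 in f/f, with medians of 0.37 and 0.19. The acute-phase list had medians of −0.40 and 0.02, the latter between −0.21 and 0.18 over the other settings, and the Kupffer cell markers of 0.13 and −0.36. These differences between medians were not tested. In the interaction of diet and genotype label, gene by gene, 0 members passed in limma at an adjusted p under 0.05 (0.0344% of genes tested), and 871 (8.69%, against 8.35% of genes tested) had an unadjusted p under 0.05. Of the 142 called genes 60 were not called in the LKO-labelled libraries, and this alone does not show that they differ.
The lowest adjusted p of the interaction among the members was that of *Angptl8*, which rose in f/f liver and had FPKM of 33.1 and 30.3 on CD and 17.5 and 17.9 on HFD in the LKO-labelled libraries, a log2 fold change of −0.78 there (adjusted p = 0.0357). The difference of −1.70 between the labels had an adjusted p of 0.11. It was the only one of the 142 that was called in opposite directions. Of the other genes called in f/f, *Cebpa*, *Egfr* and *Trp53inp1* had the next lowest values, with log2 fold changes of 0.59, −0.62 and −1.60 in f/f and −0.28, −1.54 and −0.20 in the LKO-labelled libraries (adjusted p of the difference 0.229, 0.229 and 0.307).

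**Figure D5:**
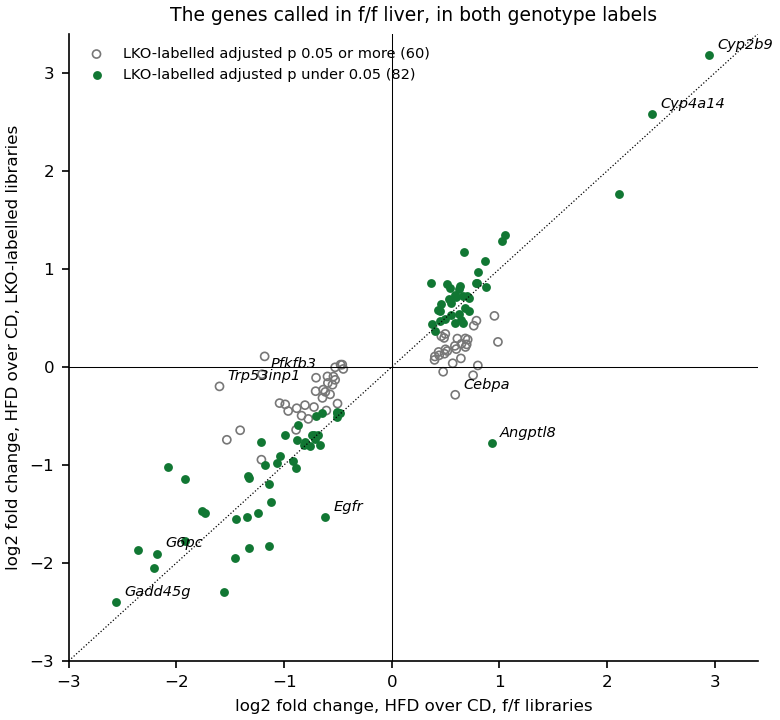
Log2 fold change, HFD over CD, of the 142 genes called in the f/f libraries (horizontal axis) and in the LKO-labelled libraries (vertical axis). Filled green points are the 82 genes with an adjusted p under 0.05 in the LKO-labelled libraries, open points the other 60, and the dotted line marks equal values. Most points lie at lower left and upper right, and *Angptl8* is the filled point at lower right.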

How the data were processed

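The authors extracted RNA from mouse liver with Trizol, prepared poly(A) libraries with the TruSeq v2 kit and sequenced them as read pairs. Per the study's methods and the submitters' processing notes, adapters and low-quality bases were trimmed with cutadapt 1.0, reads were aligned to GRCm38 with TopHat2 2.0.7 and expression was estimated with Cufflinks, whose version and annotation are not given in the sources used here. The deposited values are FPKM for 38283 genes in 8 libraries, not on a log scale, and the depth behind them is not known from the table.

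Genes were matched by Ensembl identifier to GENCODE M21 (36425 matched). Every gene that exceeded an FPKM of 1 in any library entered the test, as log2(FPKM + 1) after quantile normalization, and each fold change is the HFD mean less the CD mean on that scale. The 4 groups were fitted together in limma 3.58.1 (R 4.3.3) with a trend of variance on level, 4 residual and 2.8 prior degrees of freedom and Benjamini-Hochberg adjustment. The script was also run on simulated data with known changes. For 1 gene, an exact permutation test of 2 against 2 libraries (two-sided) cannot go below p = 0.333. The permutation procedure of the study was not run. P-values measure the spread between pools of 2 mice.

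The genes named are *Rora*, the 4 largest of each of 21 lists and any called member of a list. To these come the 15 called members with the largest log2 fold change in each direction whose libraries did not overlap between the diets. A few genes that this rule names are not reported here, though they count in the lists. Other names are said to be chosen after their values were seen, or belong to the lists and are given as further examples. The members, lists and rules were chosen with earlier results of these data known. Alternatives were no normalization, median centring, 0.1 in place of 1 as pseudocount, a filter of FPKM above 1 in all 8 libraries or above 0 in any, a replicate block, no trend, the 4 libraries of a genotype alone, an adjusted p under 0.1 and each library left out. Python 3.11.15 and matplotlib 3.10.9 were used.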

Additional observations from a re-analysis of the deposited data

Results flagged for a closer look

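*Angptl8* was set apart because the effect of the diet differed in direction between the genotype labels. Its log2 fold change on HFD was 0.93 in the f/f libraries and −0.78 in the LKO-labelled libraries, both past the limma threshold, and the difference between them was −1.70. Tested as an interaction this difference had an adjusted p of 0.11, so that it failed the correction over all genes tested. The CD-fed LKO-labelled libraries were the highest of the 8, at 33.1 and 30.3, and the CD-fed f/f libraries the lowest, at 13.0 and 9.56. In f/f both HFD libraries were above both CD libraries, and in the LKO-labelled libraries both were below. The cause was not tested.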

How the results depend on the processing

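The direction of the 105 genes named by rule was kept in every alternative, while the number of calls moved widely. Where the libraries of the 2 diets did not overlap, leaving 1 out could hardly turn a direction. For members higher on HFD in f/f liver (66) and lower (76), 142 and 181 were called with FPKM above 1 in all 8 libraries, 7 and 16 with FPKM above 0 in any library, 9 and 22 without the trend, 0 and 2 with the 4 f/f libraries alone, 248 and 260 at an adjusted p under 0.1, and from 0 to 2 and from 5 to 16 with 1 library left out. Without normalization there were 49 and 103, of which 120 were among the 142, and with median centring 57 and 84, so that the split of higher against lower calls moved with the scaling. With a pseudocount of 0.1 there were 78 and 100, including all 142. With the replicate block there were 3 and 25, of which 25 were among the 142. Over the members as a whole, same-numbered libraries did not deviate together (Pearson's r = 0.03 in f/f and −0.04 in the LKO-labelled libraries). Over all genes tested r was 0.06 and 0.09. Such a correlation cannot show deviations shared by a smaller set of genes. For the 330 members called in the LKO-labelled libraries, the counts were 570 with FPKM above 1 in all 8 libraries, 96 with FPKM above 0, 213 with the replicate block, 199 without the trend, 0 with the 4 LKO-labelled libraries alone, 868 at an adjusted p under 0.1 and 5 to 70 with 1 library left out. The interaction had 0 calls in limma in each of these settings except with 1 library left out, where the count was 0 to 3. Changes in counts with a wider or narrower filter come with another number of genes tested, and the cause of the others was not tested. Having 2 libraries per group limits every call.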

Other observations

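Outside the 10024 members, 13 genes were called between the diets in f/f liver, 7 higher and 6 lower on HFD, each at 1 or below in at least 1 f/f library. *Abcd2*, a peroxisomal transporter of very long-chain fatty acids, had FPKM of 0.369 and 0.882 on CD and 3.29 and 3.96 on HFD (log2 fold change 1.53, adjusted p = 0.0373 in limma), and *Vldlr*, the receptor of very low-density lipoprotein, had 0.377 and 0.200 on CD and 1.46 and 1.69 on HFD (log2 fold change 0.98, adjusted p = 0.0381). *Asns*, the asparagine synthetase and a known target of the factor ATF4, had 3.78 and 3.78 on CD and 0.690 and 1.01 on HFD (log2 fold change −1.36, adjusted p = 0.0257), while *Trib3*, another such target, was higher on HFD without passing. *Cyp2c55* had 2.42 and 3.42 on CD and 0.157 and 0.244 on HFD (log2 fold change −1.73, adjusted p = 0.0256), and *Moxd1*, a monooxygenase gene, had 9.08 and 21.1 on CD and 0.0228 and 0.0199 on HFD (log2 fold change −3.87, adjusted p = 0.0373). Of the 13, 4 were listed at 0 in both libraries of a diet. *Snord15b* had 5.99 and 8.44 on CD, while *Snord118* had 40.5 and 44.1, *Gm22988* 12.3 and 15.1 and ENSMUSG00000093165 69.3 and 77.0 on HFD. The female-predominant *Cyp2b13*, a close paralog of *Cyp2b9*, was listed at 0 in both CD libraries and had 1.07 and 3.70 on HFD (adjusted p = 0.137).

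The threshold of 1 left *Trpm2* just inside, with 1.0003 in its lowest f/f library, and *Tecpr2* just outside, with 0.999. A further 1277 genes were above 1 in some but not all of the 4 f/f libraries.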
